A study of Homo sapiens with 4 samples.

Results

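The 14667 regions described here gained chromatin accessibility in K562 cells with both N,N-dimethyldoxorubicin (diMe-Doxo) and aclarubicin (Acla) and were not listed as gained with doxorubicin (Doxo). They were chosen from the authors' lists of gained regions, as those with identical coordinates in the diMe-Doxo and Acla lists and no entry in the Doxo list. They make up 14.6% of the 100205 regions in any of the 3 lists and 33.8% of the 43402 regions shared by the diMe-Doxo and Acla lists. They are also 27.8% of the 52784 regions of the diMe-Doxo list and 23.9% of the 61295 regions of the Acla list. The other 28735 shared regions stood in the Doxo list as well. All members lay on chromosomes 1 to 22 and X.

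The series compared K562 cells, an established human leukaemia line, after 4 h with 10 µM diMe-Doxo, 20 µM Acla or 10 µM Doxo, and without treatment (control). ATAC-seq was used, which maps open DNA by the insertion of sequencing adapters with a transposase. Each group is 1 GEO sample, but every list gives values of 2 libraries for its drug and 2 for the control. Nothing in the labels tells if such a pair was made from different cultures, so every p-value measures the spread between these libraries, which may be technical.

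Anthracyclines are planar molecules that slide between DNA base pairs. Doxorubicin also traps topoisomerase II on cut DNA, which leaves double-strand breaks, and it evicts histones from chromatin. Aclarubicin and N,N-dimethyldoxorubicin, which carries a pair of methyl groups on the amine of its sugar, are known for histone eviction that comes with little or no such cutting. A region where histones are lost becomes easier for the transposase to reach, so histone eviction is one of the processes that ATAC-seq can register.

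The lists hold gained regions only. A region entered a list with a p of at most 0.05 and a log2 fold over control of at least 1.5, and the highest false discovery rate (FDR) was 0.0916 in the diMe-Doxo list, 0.0839 in the Acla list and 0.0962 in the Doxo list. The Doxo signal at the members was therefore not analysed here, and a gain with Doxo below these limits is possible at any of them. A difference between Doxo and the other drugs at the members was not tested. Coordinates are those of the lists (GRCh37), and it is not stated if their start positions count from 0 or from 1. Neither sequences nor genes are given for the regions, since no genome or annotation of this build was used here.

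At the members, the control cells had few reads and the treated cells more. The median member had 47 and 40 reads in the diMe-Doxo libraries, 87 and 63 in the Acla libraries, and 1 and 1 in the control libraries. Summed over all members, the diMe-Doxo libraries held 822005 and 687330 reads, the Acla libraries 1504996 and 1110802, and the control libraries 30901 and 28429. No member had more than 20 reads in the first control library or 23 in the second. These raw reads are not comparable between libraries, because the authors' factors made a treated read worth 0.142 to 0.208 control reads. Since 1 read is the lowest control value in the lists, a region without any control read may stand at 1.

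To set the drugs side by side, signal was expressed in control reads, with the authors' library factors scaled on the control libraries that the lists share. The median member then stood at 9.50 and 8.33 in the diMe-Doxo libraries, at 12.3 and 9.17 in the Acla libraries, and at 1.09 and 0.918 in the control libraries. The mean per member was 11.3 and 9.76 in the diMe-Doxo libraries, against 2.30 and 1.78 in the control libraries. On the factors of the Acla list it was 14.5 and 11.03 in the Acla libraries, against 2.27 and 1.80 in the control libraries. The middle 80% of members spanned 5.46 to 19.2 and 4.79 to 16.5 with diMe-Doxo, 6.79 to 24.8 and 4.95 to 19.4 with Acla, and 1.09 to 5.45 and 0.918 to 3.67 in the control. All 4 treated medians were above the upper end of both control ranges. These values chose the members, so they carry no test.

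**Figure D1:**
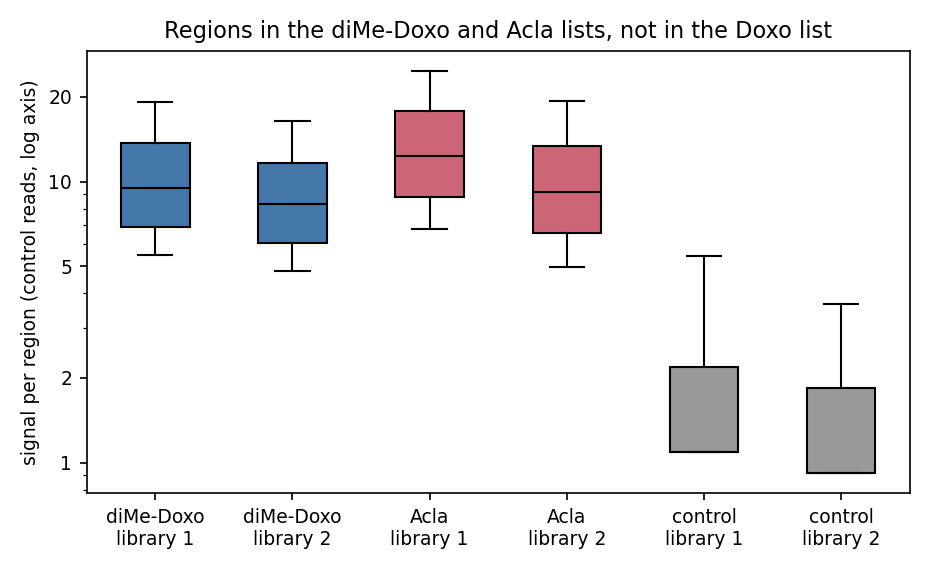
Signal per member in each library, in control reads on a log axis (boxes, quartiles with the median line; whiskers, 10th to 90th percentile; 14667 regions). The treated medians lie between 8.33 and 12.3 and the control medians, which coincide with the lower edge of their boxes, at 1.09 and 0.918.

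The libraries of a drug were not equally high at the members. The first diMe-Doxo library exceeded the second by a median of 1.15 times and was higher at 69.5% of members. The first Acla library exceeded the second by 1.34 times and was higher at 86.7%. At regions of all 3 lists the same ratios were 1.19 for diMe-Doxo and 1.16 for Acla. The Acla libraries thus stood further apart at the members than at the regions also gained with Doxo, and the diMe-Doxo libraries did not.

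In the authors' deposited tables the members were moderate gains. Their median log2 fold over control was 2.38 in the diMe-Doxo list, with an interquartile range of 2.12 to 2.70 and a range of 1.53 to 4.46. In the Acla list it was 2.65, with an interquartile range of 2.29 to 3.06 and a range of 1.52 to 5.09. The fold was higher in the Acla list at 10346 members (70.5%), higher in the diMe-Doxo list at 4217 (28.8%) and equal at 104. Both folds rest on the same 2 control libraries, whose reads were identical in the lists at all 43402 shared regions, so they are not independent of each other.

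The members had lower folds than the regions of all 3 lists, whose medians were 2.82 in the diMe-Doxo list and 2.95 in the Acla list. The members' median was the lower on 23 of 23 chromosomes with each drug. These folds were used to choose the members, and the Doxo list rests on the same control libraries, so the tally carries no test. Regions listed with 1 of the 2 drugs alone were lower still, at 2.14 for diMe-Doxo alone and 2.30 for Acla alone. Of the members, 239 (1.63%) stood among the highest 10% of folds in the diMe-Doxo list, at 3.55 or more, against 17.6% of the regions of all 3 lists. In the Acla list 625 members (4.26%) reached the highest 10%, at 3.74 or more, against 19.3% of the regions of all 3 lists.

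**Figure D2:**
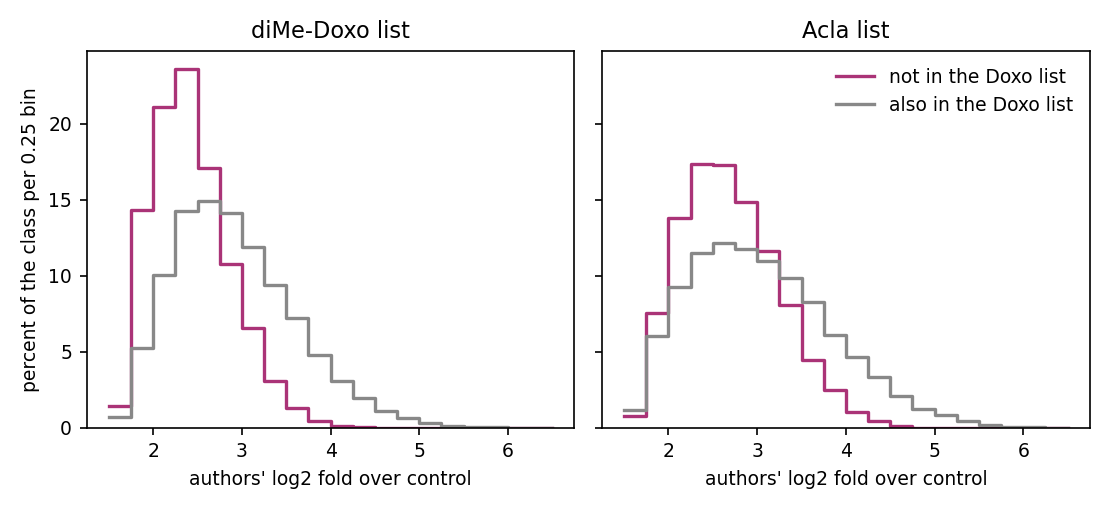
Authors' log2 fold over control (x axis) against the percent of each class per bin of 0.25 (y axis), for members and for regions also in the Doxo list. In both panels the members' curve is narrower and lies further left, with medians of 2.38 against 2.82 for diMe-Doxo and 2.65 against 2.95 for Acla.

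The share of members among the shared regions fell with the fold. At diMe-Doxo log2 folds up to 2.27, 53.4% of shared regions were members, at 2.28 to 2.64 42.5%, at 2.65 to 3.13 28.7% and at 3.14 or more 10.0%. By Acla log2 fold the share was 41.9% up to 2.37, 41.8% at 2.38 to 2.82, 35.4% at 2.83 to 3.38 and 15.9% at 3.39 or more. At the highest folds of either drug a shared region was thus more often in the Doxo list as well. The folds and the Doxo list rest on the same control libraries, so this is a description. The share also fell with control reads, being 38.1% at regions with 1 read in each control library, 35.8% at 3 to 4 control reads in all, 30.9% at 5 to 8 and 21.7% at 9 or more.

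Stricter limits were met by a part of the members, whose FDRs were higher than those of the regions of all 3 lists. In the diMe-Doxo list the median FDR was 0.0313 at members, against 0.00639 at regions of all 3 lists. In the Acla list it was 0.0147 against 0.00452. An FDR of at most 0.05 in both lists was met by 9068 members (61.8%). The same share over all shared regions was not computed, so this count has no background beside it. An FDR within 0.01 together with a log2 fold of 2 or more in both lists was met by 2004 members (13.7%). Of all 43402 shared regions, 15837 met the second pair of limits, a larger part than of the members. Members made up 12.7% of these 15837, against 33.8% of shared regions at the authors' limits. The Doxo list kept the authors' limits in this count, which by itself lowers the share. With the second pair of limits on all 3 lists, 6693 of the 15837 regions did not pass with Doxo. Near the authors' limit, at a p above 0.04, stood 1407 members (9.59%) in the diMe-Doxo list, 783 (5.34%) in the Acla list and 129 in both. The same shares over all shared regions were not computed.

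The members just inside the lists show what a weak entry looks like. On chromosome 13 at 92693622-92694737, the diMe-Doxo libraries had 51 and 47 reads, the Acla libraries 112 and 87, and the control libraries 5 and 1. The authors' log2 folds there were 1.66 with diMe-Doxo (p 0.05) and 2.17 with Acla. On chromosome 6 at 95948339-95949629 the Acla entry was at the limit, with a log2 fold of 2.25 for diMe-Doxo and 1.75 for Acla (p 0.05). The other entries nearest to the limit were on chromosome 5 at 15950335-15951482, with log2 folds of 1.75 and 2.68 for diMe-Doxo and Acla, and on chromosome 10 at 72728894-72729420, with 2.35 and 1.84.

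Regions just outside were listed with Doxo by a similarly small margin. On chromosome 8 at 133577334-133577817, 20 and 24 Doxo reads against 5 and 1 control reads gave an authors' log2 fold of 1.86 at p 0.05. On chromosome 14 at 62859999-62860722 the Doxo fold was 1.85 at p 0.0499. By size of fold the nearest were on chromosome 1 at 10736372-10737416 (Doxo log2 fold 1.57, p 0.0447) and on chromosome 7 at 156254738-156257361 (1.59, p 0.0484). Of the regions of all 3 lists, 1171 (4.08%) had a Doxo p above 0.04 and 8502 (29.6%) one above 0.01. Some of them thus lay close to the Doxo limit, while the lists hold no Doxo values on its other side, at the members.

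The lists did not ask for the same signal. A treated read was worth 0.202 and 0.208 control reads in the diMe-Doxo libraries, 0.142 and 0.146 in the Acla libraries, and 0.503 and 0.498 in the Doxo libraries. At regions with 1 read in each control library, the lowest listed signal was 4.40 control reads with diMe-Doxo, 4.38 with Acla and 5.00 with Doxo. In reads summed over the 2 treated libraries this was 43, 61 and 20. Of the 5553 members with 1 read in each control library, 903 (16.3%) with diMe-Doxo and 417 (7.51%) with Acla lay below the lowest signal that entered the Doxo list. The part of this unequal limit in the make-up of the class was not tested beyond these counts.

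The region on chromosome 2 at 6055216-6056750 (1534 bp) had the lowest FDR of the members in the diMe-Doxo list and the second lowest of the members in the Acla list. It held 161 and 145 reads with diMe-Doxo, 330 and 259 with Acla, and 1 and 3 in the control libraries. The authors gave a log2 fold of 4.03 for diMe-Doxo (FDR 1.56e-05) and of 4.45 for Acla (FDR 3.39e-06). The ratio of scaled signal was 15.6 for diMe-Doxo and 21.1 for Acla. The 95% counting intervals, exact and covering counting error only, ran from 6.05 to 57.8 and from 8.19 to 77.6, so both are wide. The region was chosen for its gain over these same control reads, so that both lie above 1 carries no test. The control value of 1 was taken as a counted read, although it may stand for none.

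The member with the highest diMe-Doxo fold was the region on chromosome 7 at 143745639-143746539 (900 bp). It held 117 and 98 reads with diMe-Doxo, 73 and 46 with Acla and 1 in each control library. The authors' log2 fold was 4.46 with diMe-Doxo (FDR 2.13e-05) and 3.09 with Acla (FDR 0.00847). The highest Acla fold belonged to the region on chromosome 11 at 127117136-127118515 (1379 bp). It held 90 and 80 reads with diMe-Doxo, 294 and 182 with Acla and 1 in each control library. There the order was the other way, with log2 folds of 4.12 with diMe-Doxo and 5.09 with Acla (FDR 3.13e-06). With 2 control reads behind it, the Acla ratio of 34.1 had an interval of 9.38 to 282. Both control values were at the lowest value of the lists, which the interval took as counted reads.

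Other members with the lowest FDRs were gained with both drugs, by a log2 fold of 3.54 or more each. Among the 5 leading members of the diMe-Doxo list was chromosome 8 at 88800778-88802308, with 101 and 97 reads with diMe-Doxo, 232 and 139 with Acla and 1 in each control library. The other leading diMe-Doxo members were on chromosome 6 at 145632967-145634337, with log2 folds of 4.00 for diMe-Doxo and 4.13 for Acla, and on chromosome 13 at 72886929-72888806, with 4.04 and 4.44. In the Acla list the leading members included chromosome 11 at 132313616-132314764, with log2 folds of 3.97 for diMe-Doxo and 4.86 for Acla. The others were on chromosome 8 at 13814545-13816917, with 3.59 and 4.78, and on chromosome 7 at 115254029-115255752, with 3.54 and 4.22. Each had at most 4 control reads in all.

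Members were narrower than regions of all 3 lists and wider than those of a single list. Their median width was 821 bp, with an interquartile range of 623 to 1087 bp and a range of 97 to 3352 bp, and they covered 13.01 Mb. The median was 1019 bp for regions of all 3 lists, 601 bp for diMe-Doxo alone, 655 bp for Acla alone and 600 bp for Doxo alone. Members were narrower than regions of all 3 lists on 23 of 23 chromosomes. Among shared regions, members made up 44.9% of those up to 688 bp and 19.04% of those of 1278 bp or more.

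The widest members had uneven controls. The widest of all, on chromosome 11 at 1122342-1125694 (3352 bp), held 502 and 385 reads with diMe-Doxo, 405 and 587 with Acla, and 4 and 23 in the control libraries. Its log2 folds were 2.83 with diMe-Doxo and 2.48 with Acla, and the authors had called a peak there in both control libraries. On chromosome 8 at 104858651-104861935 (3284 bp) the control libraries held 15 and 1 reads, with log2 folds of 2.27 and 2.70 for diMe-Doxo and Acla. On chromosome 18 at 35239885-35243026 (3141 bp) they held 18 and 1, with folds of 2.21 and 2.43. The remaining pair, on chromosome 2 at 185142118-185145280 and on chromosome 1 at 17279492-17282637, had log2 folds of 3.08 and 1.71 with diMe-Doxo, beside 3.0 and 1.64 with Acla. In all 5, a single control library held most of the control reads.

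Most members lay where the control cells had no called peak. No control peak had been called at 13525 members (92.2%), a peak in 1 control library at 843 (5.75%) and in both at 299 (2.04%). The share without a control peak was 88.8% at regions of all 3 lists and 75.7% at regions of the Doxo list alone, and members were above the regions of all 3 lists on 20 of 23 chromosomes. The trait was not particular to the members. The share was 95.1% at Acla alone, 92.0% at Doxo and Acla without diMe-Doxo, and 87.2% at diMe-Doxo alone. At Doxo and diMe-Doxo without Acla it was 79.1%. Mean control reads per region were 2.11 and 1.94 at members, 2.64 and 2.28 at regions of all 3 lists and 4.88 and 5.55 at regions of Doxo alone. They were 2.28 and 1.86 at Acla alone and 2.38 and 2.27 at diMe-Doxo alone. Low control signal also raises the fold that a given treated signal reaches, and its part in these shares was not tested.

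Peaks called in the treated libraries were common but not universal at the members. With diMe-Doxo a peak had been called in both libraries at 63.5% of members, in 1 at 30.1% and in neither at 6.48%. With Acla the shares were 72.2%, 22.5% and 5.32%. All 4 treated libraries had a peak at 7185 members (49.0%), against 58.0% of regions of all 3 lists. Over the 6 diMe-Doxo, Acla and control libraries, 269 members (1.83%) had a single peak call, and none had 0. Every region of all 3 lists had at least 2 calls over the 8 libraries. If that minimum held for all regions, these 269 members had a further peak call in a Doxo library, the only kind left among the 8.

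The members were unevenly spread over the chromosomes. They made up the largest share of the regions in any list on chromosome 4 (19.1%, 1140 of 5960), chromosome 8 (18.02%, 997 of 5534) and chromosome 2 (17.6%, 1681 of 9547). The smallest shares were on chromosome 19 (2.09%, 56 of 2675), chromosome 22 (3.96%, 49 of 1238) and chromosome 17 (5.22%, 126 of 2415). Chromosomes 19, 17 and 22 are known as gene-dense and chromosome 4 as gene-poor. Chromosome 18, which is also gene-poor, was below the genome's 14.6% at 10.4%.

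The order was alike when the Doxo list was set against the shared regions alone. Of the regions shared by diMe-Doxo and Acla, 8.86% on chromosome 19, 16.5% on chromosome 17 and 17.4% on chromosome 22 were members. On chromosomes 3, 13 and 4 the shares were 39.1%, 38.7% and 38.6%, and the median over 23 chromosomes was 31.1%. With the FDR within 0.01 and the log2 fold at 2 or more in both lists, the share was 2.15% on chromosome 19 (4 of 186), 2.78% on chromosome 17 (7 of 252), 14.4% on chromosome 4 (169 of 1175) and 15.3% on chromosome 3. The Doxo list kept the authors' limits in these shares. With all 3 lists at the stricter limits, 24 of the 186 regions on chromosome 19 did not pass with Doxo. On chromosome 4 this held for 519 of the 1175 regions. Chromosomes 19 and 17 had the lowest shares of members at both the authors' limits and the stricter ones. K562 cells are aneuploid, and copy number, which raises reads in treated and control libraries alike, was not taken into account.

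**Figure D3:**
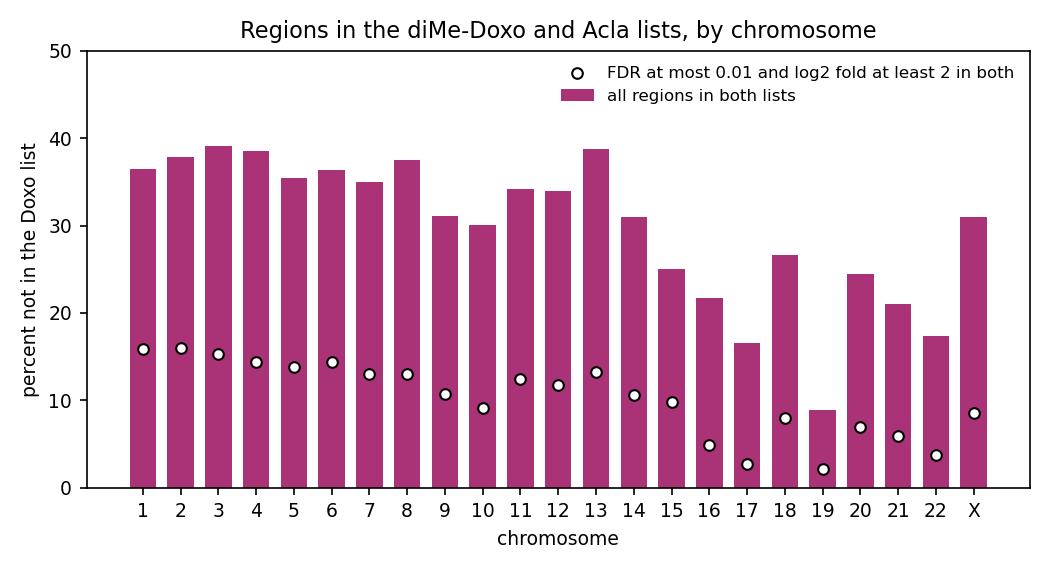
Percent of the regions in both the diMe-Doxo and Acla lists that were not in the Doxo list (y axis) by chromosome (x axis), for all such regions (bars) and for those with an FDR within 0.01 and a log2 fold of 2 or more in both lists (points). Bars run from 8.86% on chromosome 19 to 39.1% on chromosome 3, and the points on chromosomes 19 and 17 are at 2.15% and 2.78%.

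Members were less often near the outermost listed regions of a chromosome, which need not lie at its physical ends. Within 5 Mb of the first or last listed region of a chromosome lay 11.7% of members (1714), against 17.99% of regions of all 3 lists, 22.1% of Doxo alone and 16.6% of regions of any list. Acla alone was lower, at 5.71%, and diMe-Doxo alone was at 17.2%. The members' median distance from the nearer of these outermost regions was 27.2 Mb, against 25.2 Mb for regions of all 3 lists.

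The members lay further from Doxo-listed regions than the regions of all 3 lists did. None shared a base with a Doxo-listed region, and 13578 had none within 1 kb of their edges. The absence of overlap may come from how the authors set the borders of regions, so it is not read as a result. Measured from middle to middle, as in the rest of the paragraph, the nearest Doxo-listed region was a median of 16.5 kb away, within 10 kb at 34.9% of members and within 100 kb at 94.5%. The median distance to another Doxo-listed region was 8.89 kb for regions of all 3 lists, 12.8 kb for diMe-Doxo alone and 21.2 kb for Acla alone. To the nearest other region shared by diMe-Doxo and Acla, members (10.8 kb) and regions of all 3 lists (10.6 kb) had nearly the same distance. Absence from the Doxo list thus went with fewer Doxo-listed regions nearby, and not with fewer regions shared by the other drugs.

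**Figure D4:**
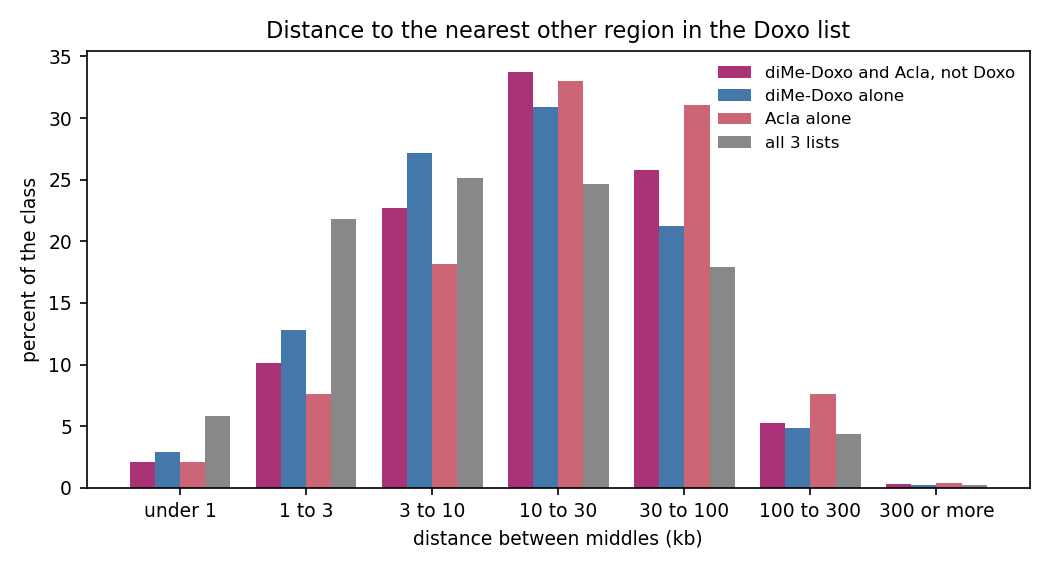
Distance from middle to middle to the nearest other Doxo-listed region in kb (x axis, unequal bins) against the percent of each class (y axis), for members, diMe-Doxo alone, Acla alone and regions of all 3 lists. Members peak at 10 to 30 kb, and 34.9% of them lie within 10 kb, against 52.8% of the regions of all 3 lists.

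Most stretches between Doxo-listed regions that held members held a single one, and a few held runs. Of 8899 stretches between neighbouring Doxo-listed regions that held a member, 5662 held 1, 279 held 5 or more (1727 members) and 12 held 10 or more. The longest run was on chromosome 11 at 121901800-122265926, where 18 of the 29 listed regions in 364 kb were members. On chromosome 8 at 109268547-109767476, 17 of 24 listed regions in 499 kb were members. On chromosome 9 at 137745939-137822216 all 11 regions in 76.3 kb were members. The rest of the regions in such stretches stood in the diMe-Doxo or the Acla list alone, since a stretch holds no Doxo-listed region.

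In windows of 1 Mb the members were spread widely, with some dense windows. Members were present in 2152 of the 2848 windows with any listed region, and 125 windows with 20 or more members held 3446 of them. The window with the most, chromosome 1 from 4 to 5 Mb, held 62 members among 151 diMe-Doxo, 150 Acla and 92 Doxo regions. Chromosome 11 from 132 to 133 Mb held 53 members among 95 diMe-Doxo, 134 Acla and 46 Doxo regions. Next came chromosome 1 from 232 to 233 Mb with 47 members, chromosome 11 from 133 to 134 Mb with 45 and chromosome 1 from 5 to 6 Mb with 43. These 5 windows held 46 to 92 Doxo-listed regions each, while chromosome 6 from 156 to 157 Mb held 29 with 42 members, and chromosome 16 from 2 to 3 Mb held 97 with 0 members (both named after their values were seen).

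The comparison of diMe-Doxo with Acla was not used to choose the members, although each had to pass the limits with both drugs. The doses differ, so it sets 10 µM diMe-Doxo against 20 µM Acla in these libraries and does not compare the compounds dose for dose. It was made with edgeR's quasi-likelihood test on the reads of all 43402 shared regions, with Benjamini-Hochberg adjustment over all of them, and it used the authors' library factors scaled on the shared controls. The median log2 difference, diMe-Doxo minus Acla, was -0.24 at members, with an interquartile range of -0.58 to 0.054. At the shared regions that were also in the Doxo list it was -0.10. The members' median was the lower on 21 of 23 chromosomes.

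At an adjusted p of at most 0.05, 13 members (0.0886%) were higher with diMe-Doxo, against 0.846% of all shared regions. Lower with diMe-Doxo were 740 members (5.05%), against 5.58% of all shared regions, so their share was close to that background. At an unadjusted p under 0.05 the test gave 190 members higher and 2667 lower. The share of all shared regions at that limit was not computed, so these counts have no background beside them. With TMM factors, which set the median difference of all shared regions at 0.0037, it gave 282 members higher (1.92%, against 6.64% of all) and 1090 lower (7.43%, against 8.32%), and the members' median was -0.083.

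The difference between the drugs depended on single libraries. Without the first diMe-Doxo library the members' median was -0.37, against -0.24 at the other shared regions. Without the second it was -0.16 against 0.010. Without the first Acla library the members' median was -0.023, against -0.012 at the other shared regions, and without the second -0.45 against -0.18. The number of members called changed widely with the library left out. These counts are not given, because each such fit leaves 1 library in a group. DESeq2 gave 6 members higher (0.0409%, against 0.783% of all shared regions) and 408 lower (2.78%, against 3.72%). It gave no adjusted p for 7936 members, which these shares count as not called. How many of the other shared regions lacked one was not counted, so the DESeq2 shares do not set members against that background. The direction of the members' median was thus the same in every setting tried, while its distance from the other shared regions nearly vanished without the first Acla library.

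**Figure D5:**
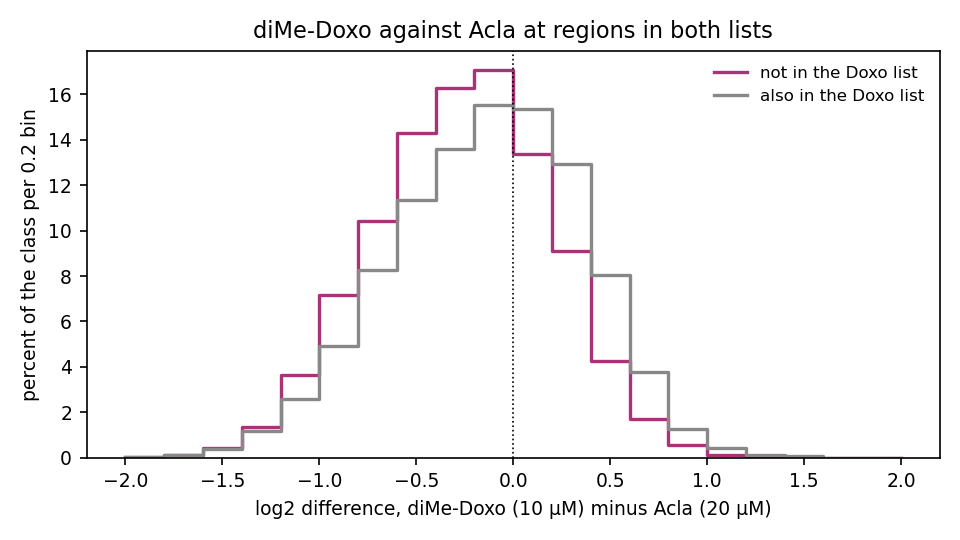
Log2 difference, diMe-Doxo minus Acla (x axis), against the percent of each class per bin of 0.2 (y axis), for members and for the shared regions also in the Doxo list. The members' median is -0.24 and that of the others -0.10, and the curves overlap over most of their range.

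Single members with the lowest adjusted p showed what the extremes look like. Among those higher with diMe-Doxo, the region on chromosome 7 at 143745639-143746539 (117 and 98 reads with diMe-Doxo, 73 and 46 with Acla) differed by 1.37 ± 0.33 on the log2 scale (SE, edgeR adjusted p 0.00331). In control reads it stood at 23.6 and 20.4 with diMe-Doxo and at 10.3 and 6.70 with Acla, so the groups did not overlap. On chromosome 7 at 136560082-136560833, 79 and 56 reads with diMe-Doxo stood against 35 and 28 with Acla, a log2 difference of 1.61 (edgeR adjusted p 0.0039). On chromosome 2 at 15885911-15886603 98 and 105 reads with diMe-Doxo stood against 72 and 46 with Acla, a log2 difference of 1.30 (edgeR adjusted p 0.00615). The highest edgeR adjusted p with 1 library left out was 0.202, 0.210 and 0.390 for these regions, so each call was lost in some setting.

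All 3 members with the lowest adjusted p in the other direction lay on chromosome 3. At 179920690-179921924, 26 and 28 reads with diMe-Doxo stood against 183 and 136 with Acla, a log2 difference of -2.04 ± 0.35 (SE, edgeR adjusted p 3.12e-05). In control reads this was 5.25 and 5.83 with diMe-Doxo against 25.9 and 19.8 with Acla. At 21137892-21139858 78 and 63 reads with diMe-Doxo stood against 367 and 229 with Acla, a log2 difference of -1.56 (edgeR adjusted p 3.57e-05). At 22243794-22245659 43 and 66 reads with diMe-Doxo stood against 307 and 179 with Acla, a log2 difference of -1.63 (edgeR adjusted p 5.64e-05). The groups did not overlap at any of the 3, and with TMM factors the adjusted p stayed at 0.000177 or below. The highest edgeR adjusted p with 1 library left out was 0.0570, 0.127 and 0.0851.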

How the data were processed

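ATAC-seq was measured in K562 cells, 1 GEO sample per group. Per the submitters' processing notes, the build was GRCh37 and regions were compared with DiffBind. For the aligner, the peak caller, DiffBind's own test and software versions the status is: not given in the sources used here. Because headers are absent, what each column holds was derived from its values. The authors deposited log2 mean signals and a log2 fold per region, a p-value and an FDR, the number of libraries with a called peak, and a normalized signal per library. Values named as the authors' were not recomputed.

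Each deposited signal was a whole number of reads times 1 factor per library, with a tolerance of 0.1 reads for 100% of values. Full library depths are unknown, because the lists hold gained regions only. Members were matched by identical coordinates. The members and the measures were chosen with earlier results of these data known, and class differences are given as descriptions. Regions named are the 5 members with the lowest FDR in each list, the 5 widest, the 5 windows with the most members, 3 chromosomes at each end, 3 members per direction between the drugs, and those nearest to the limits. Other stretches and chromosomes named were chosen after their values were seen. Lists of genes had been planned and were not used here, since no annotation of the build was given.

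Drugs were compared on recovered counts with edgeR 4.0.16, or DESeq2 1.42.0 as an alternative. In simulated counts over 43402 regions the diMe-Doxo to Acla test recovered 100% of 4-fold and 24% of 2-fold changes, and 3.88% of its calls were false. The simulation used the same spread between libraries for all regions and no shift of a library at some regions only. It therefore does not give the share of false calls in the real libraries. Precision at single regions is set by 2 to 4 control reads, summed over both libraries, at most members. Intervals of ratios are exact Clopper-Pearson intervals on summed reads. Alternatives were stricter limits, other overlap and distance rules, left-out libraries, TMM factors, DESeq2 and a minimum of 20 reads. Software was R 4.3.3, Python 3.11.15, pandas 2.3.3, numpy 2.4.6, matplotlib 3.10.9 and scipy 1.17.1.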

Additional observations from a re-analysis of the deposited data

How the results depend on the processing

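Limits of FDR 0.01 and log2 fold 2 in both lists left 2004 members, with a median width of 1034 bp, 92.7% without a control peak, and authors' folds (log2) of 3.06 in the diMe-Doxo list and 3.32 in the Acla list at the median. Higher limits select higher folds by construction. With 1 library left out and the fold limit alone, 11984 to 14642 members remained past a log2 fold of 1.5 in both lists, the lowest without the second control library (an alternative added after the data had been seen). From middle to middle, a distance limit of 1 kb gave 2.07% of members with a Doxo-listed region nearby, and 100 kb gave 94.5%. With the stricter limits on all 3 lists, 6693 regions passed with diMe-Doxo and Acla and not with Doxo. Of these, 2004 were members, and the rest stood in the Doxo list at the authors' limits. The share of the 6693 among all regions passing in any list was below the members' share on all 6 chromosomes named. It was outside the 95% counting interval of the members' share on 5 and inside it on chromosome 22, which held 49 members. That interval treats regions as independent draws, and 2004 of the 6693 are members themselves. It therefore does not test the difference. With the limits on the diMe-Doxo and Acla lists only, members were 2.15% of the regions passing in both on chromosome 19 and 14.4% on chromosome 4. Of the same regions, 24 of 186 on chromosome 19 and 519 of 1175 on chromosome 4 were among the 6693. Between diMe-Doxo and Acla, the members' median log2 difference was -0.083 with TMM factors and -0.45 to -0.023 with 1 library left out. Members higher with diMe-Doxo numbered 282 with TMM factors, 6 with DESeq2, and 0 to 16 with 1 library left out. Members lower numbered 408 with DESeq2 and 1 to 1945 with 1 library left out. The cause was not tested, although leaving out a library leaves 1 in its group, which is then assumed to vary like the other group. A minimum of 20 reads gave 16 members higher (0.116%, against 0.892% of all regions tested) and 707 lower (5.13%, against 5.60%). GC content and position in genes were not run, since no genome of the build was used here. No paired analysis was possible because the lists number no libraries across groups.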

Other observations

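Where the Doxo list parted from the other drugs varied widely between places. Counting the 755 windows (1 Mb each) that held 20 or more regions shared by diMe-Doxo and Acla, members were a median of 38.1% of the shared regions, with a range of 0% to 87.5%. The windows named here were chosen after their values were seen. On chromosome 8 from 109 to 110 Mb, 28 of 32 shared regions were members (87.5%), and the window held 7 Doxo-listed regions beside 36 of diMe-Doxo and 42 of Acla. On chromosome 11 from 122 to 123 Mb the share was 81.25%, with 26 members, and on chromosome 1 from 163 to 164 Mb it was 79.2%.

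At the other end, 0 of 42 shared regions on chromosome 7 from 45 to 46 Mb and 0 of 20 on chromosome 16 from 2 to 3 Mb were members. The window on chromosome 16 held 97 Doxo-listed regions, 73 of them in the Doxo list alone, beside 21 of diMe-Doxo and 23 of Acla. On chromosome 5 from 149 to 150 Mb, 0 of 21 shared regions were members, and 90 of the 95 listed regions were in the Doxo list. Windows were described with no test.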
